A study of Mus musculus with 26 samples.

Results

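The 10 genes described here encode enzymes that break down tryptophan through kynurenine and that make or clear the precursors of NAD, and their messenger RNA was measured in mouse liver. They were taken by name (Tdo2, Ido2, Afmid, Kmo, Kynu, Haao, Acmsd, Qprt, Nampt and Nnmt), each matched to 1 Ensembl gene ID of the deposited table, and all 10 were among the 17104 genes tested of 55642 listed. The study profiled 26 liver samples in 4 groups, and each sample is called a liver here. Wildtype mice on control chow gave 5 libraries and wildtype mice on CDAHFD, a choline-free high-fat diet whose protein is replaced by defined amino acids, gave 6. Mice with heterozygous knockout of Mtarc1 on CDAHFD gave 7 and mice with homozygous knockout of Mtarc1 on CDAHFD gave 8. Mtarc1 encodes an amidoxime-reducing enzyme of the outer mitochondrial membrane. CDAHFD was fed for 2 weeks, every knockout liver came from a mouse on that diet, and no knockout group on chow was included. Neither the age of the mice, the strain nor how the allele was made is given in the labels. Which samples came from separate animals is not stated in the labels, so the p-values reflect variation among samples that may be technical.

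Most tryptophan that is not used for protein is degraded in the liver. Tryptophan dioxygenase opens the indole ring, formamidase releases kynurenine, and hydroxylation and cleavage lead to an unstable semialdehyde. That semialdehyde either closes spontaneously to quinolinate, from which NAD can be built, or is decarboxylated by ACMSD and oxidised for energy. A separate salvage route returns nicotinamide to NAD through NAMPT, while NNMT methylates nicotinamide with a methyl group from S-adenosylmethionine and so removes it from salvage.

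Totals ranged from 19.73 to 29.91 M estimated counts per library, and levels are given as CPM, counts scaled to a common library total with TMM factors, a scale on which a gene can be compared between livers but not with another gene of other length. Fold changes are log2 values ± standard error (SE) from edgeR's quasi-likelihood test, and a gene was called at a Benjamini-Hochberg adjusted p under 0.05 over all tested genes. Mtarc1 (ENSMUSG00000026621.14) ranged from 264 to 361 CPM in chow livers, from 193 to 291 in wildtype CDAHFD livers, from 112 to 208 in heterozygous and from 33.4 to 65.3 in homozygous livers. The libraries labelled homozygous knockout lay below all others, and the heterozygous range overlapped the wildtype CDAHFD range. The library numbers in the labels fall into 2 series, 9 libraries under 10000 (1 chow, 3 wildtype CDAHFD, 3 heterozygous and 2 homozygous) and 17 libraries above it (4, 3, 4 and 6), and values within the larger series are given where they alter a result. What the numbers stand for is not stated.

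**Figure D1:**
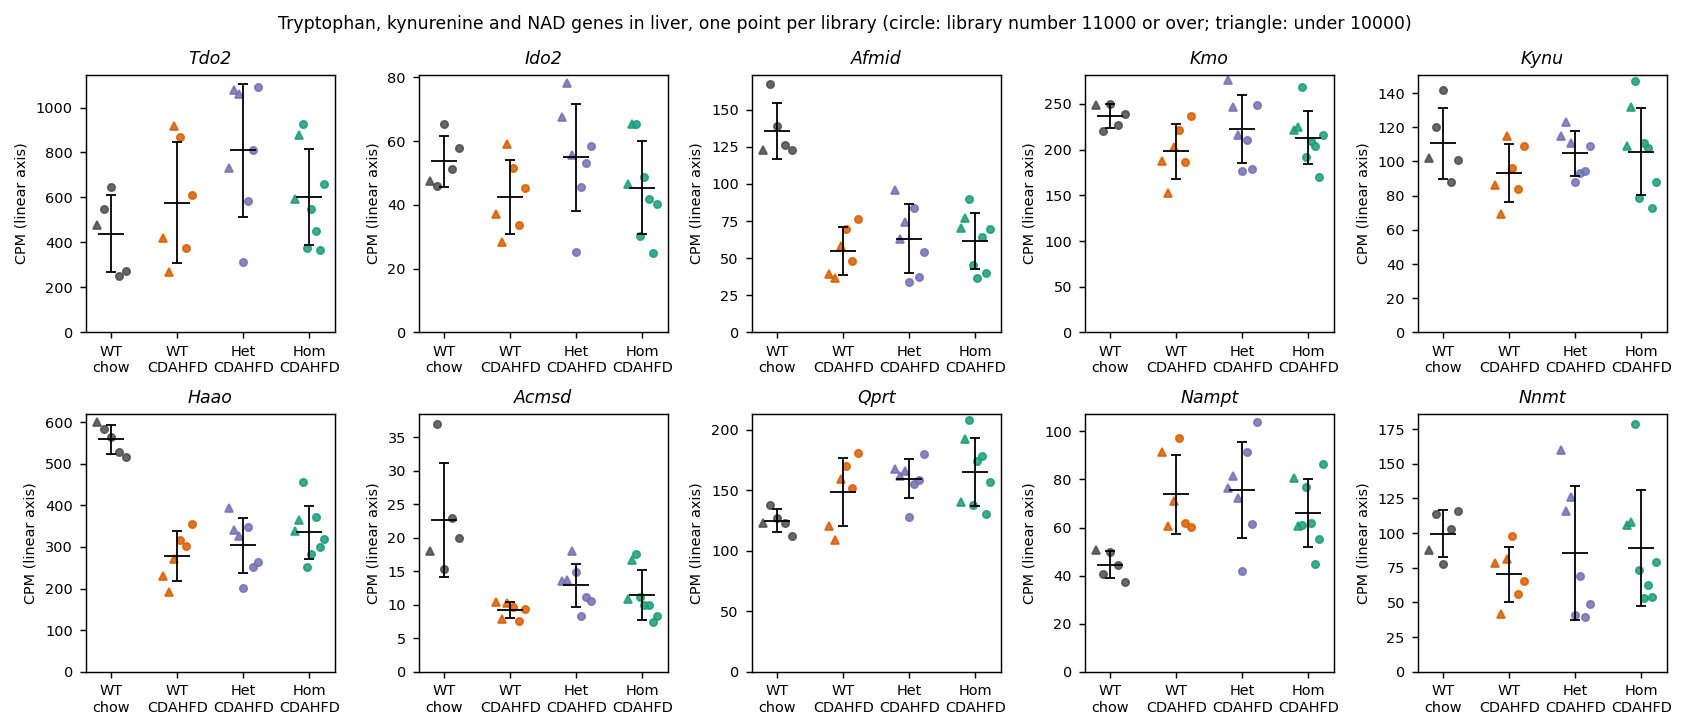
CPM of each of the 10 genes (linear vertical axes from 0) in the 26 libraries, by group, with 1 point per library and a bar for the group mean and SD. The chow points of Haao (517 to 600) and Afmid (123 to 167) lie above every CDAHFD point, whereas the points of Tdo2 and Kynu overlap between all groups.

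Under CDAHFD, 3 of the 10 enzymes fell in wildtype liver and 1 rose. Haao and Afmid, which act within the kynurenine route, and Acmsd, which takes its product away from NAD, were lower by 2.01-fold, 2.47-fold and 2.47-fold, and Nampt, the rate-limiting enzyme of nicotinamide salvage, was 1.65-fold higher. For these 4 genes no wildtype CDAHFD liver overlapped a chow liver. Across all tested genes 27.1% were called in this comparison (14.8% higher and 12.2% lower), and 13.9% had groups that did not overlap. The median log2 fold change of the 10 genes was -0.30, against -0.01 over all tested genes.

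Haao (ENSMUSG00000000673.10) encodes the dioxygenase that opens the ring of 3-hydroxyanthranilate to give the semialdehyde. Its levels in the chow livers were 600, 583, 565, 529 and 517 CPM, and in the wildtype CDAHFD livers 231, 192, 271, 318, 303 and 356 CPM. Every chow liver was above every CDAHFD liver, with chow livers spread by 6.29% (CV) around their mean and wildtype CDAHFD livers by 21.5%. The 3 wildtype CDAHFD livers of the lower number series (mean 231) were all below the 3 of the larger series (mean 325). In heterozygous livers the series means ran the other way, at 353 and 267 CPM. The fitted fold change was -1.005 ± 0.16 (adjusted p = 4.59e-05), a 2.01-fold lower level. The heterozygous livers ranged from 202 to 393 CPM with a median of 326, and the homozygous livers from 251 to 457 with a median of 329, again all below the chow livers.

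Afmid (ENSMUSG00000017718.16) encodes arylformamidase, which hydrolyses N-formylkynurenine to kynurenine. It was at 123, 167, 139, 126 and 123 CPM in chow livers and at 39.5, 36.9, 58.5, 69.7, 48.1 and 76.6 CPM in wildtype CDAHFD livers. The groups did not overlap, and the fold change was -1.30 ± 0.26 (adjusted p = 0.000445). Heterozygous livers ranged from 33.8 to 96.2 CPM with a median of 62.8, and homozygous livers from 36.4 to 89.8 with a median of 66.8.

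Part of the Afmid measurement is uncertain, because the annotation places Gm20708 over it on the same strand and Tk1 over it on the opposite strand. That annotation is GENCODE M21 of GRCm38, a different build from that of the counts. Gm20708 averaged 41.9 ± 32.9 CPM (SD, n = 5) in chow livers, where single libraries ranged from 0.695 to 84.7, and 4.09 ± 3.78 CPM (SD, n = 6) in wildtype CDAHFD livers. Estimated counts can divide reads between such overlapping genes. Summing both before the fit, an analysis chosen after seeing the data, gave 177 ± 27.7 CPM (SD, n = 5) in chow and 59.0 ± 13.3 (SD, n = 6) in wildtype CDAHFD livers, with a fold change of -1.59 and an adjusted p of 2.84e-05. Tk1, thymidine kinase, was also lower under CDAHFD (-0.74 ± 0.23, adjusted p = 0.0176), and the sources used here do not state whether reads were counted by strand.

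Acmsd (ENSMUSG00000026348.8) encodes the decarboxylase that diverts the semialdehyde from quinolinate. It was the least counted of these transcripts, at 18, 37, 15.3, 22.9 and 20 CPM in chow livers and at 10.4, 7.89, 10.2, 9.63, 7.49 and 9.35 CPM in wildtype CDAHFD livers. The lowest chow liver was above the highest wildtype CDAHFD liver, although the chow livers spread widely (CV 37.6%) and 1 of them, at 37 CPM, stood above the other 4. The fold change was -1.31 ± 0.22 (adjusted p = 9.21e-05), and leaving out any 1 library kept it between -1.42 and -1.05. Heterozygous livers ranged from 8.35 to 18 CPM with a median of 13.6 and homozygous livers from 7.37 to 17.6 with a median of 10.4, so that both reached into the chow range. In the annotation 2900009J06Rik overlaps Acmsd on the opposite strand, with a highest group mean of 0.272 CPM.

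Nampt (ENSMUSG00000020572.9) encodes nicotinamide phosphoribosyltransferase. Chow livers held 50.6, 40.7, 49.9, 44.5 and 37.3 CPM and wildtype CDAHFD livers 91.5, 60.8, 71.1, 97.2, 62.0 and 60.1 CPM. All CDAHFD wildtype livers were higher than all chow livers, and the fold change was 0.73 ± 0.19 (adjusted p = 0.00475). Within the 17 libraries of the larger number series the value was similar, at 0.77, but its adjusted p of 0.0628 missed the threshold with 4 chow and 3 wildtype CDAHFD livers. Heterozygous livers ranged from 42.1 to 104 CPM with a median of 76.6 and homozygous livers from 44.9 to 86.6 with a median of 61.6, and the lowest liver of each overlapped the chow range. The annotation places Gdap10 over Nampt on the same strand, and no level of Gdap10 was available.

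The promoters of Haao, Afmid and Nampt are shown because their transcripts changed with diet in different directions. Each window holds 250 bases before and 50 bases after the RefSeq start site (GRCm38.p6, a different build from that of the counts, used only for these windows), read 5′ to 3′ on the gene's strand. Capitals mark matches to any of 7 motifs searched on both strands: the E-box CACGTG, a C/EBP pattern TTNNGNAA, an HNF1 pattern GTTAAT, an HNF4 pattern CAAAGTCCA, a glucocorticoid receptor pattern AGAACA, the xenobiotic response core GCGTG and an interferon response element. The windows are Haao at chr17:83846741-83847040 (minus strand), Afmid at chr11:117825669-117825968 (plus) and Nampt at chr12:32820085-32820384 (plus).
Haao: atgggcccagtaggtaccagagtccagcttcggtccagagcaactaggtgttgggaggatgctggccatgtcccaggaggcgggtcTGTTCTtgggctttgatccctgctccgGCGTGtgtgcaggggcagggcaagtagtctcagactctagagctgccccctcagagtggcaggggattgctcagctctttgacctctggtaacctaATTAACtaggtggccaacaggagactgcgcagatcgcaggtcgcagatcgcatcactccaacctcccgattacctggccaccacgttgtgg
Afmid: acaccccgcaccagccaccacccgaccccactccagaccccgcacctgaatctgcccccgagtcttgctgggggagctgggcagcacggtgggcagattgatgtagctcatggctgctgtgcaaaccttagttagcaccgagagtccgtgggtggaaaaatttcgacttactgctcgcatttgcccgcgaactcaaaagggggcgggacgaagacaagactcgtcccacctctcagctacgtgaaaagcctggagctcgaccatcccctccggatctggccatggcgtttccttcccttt
Nampt: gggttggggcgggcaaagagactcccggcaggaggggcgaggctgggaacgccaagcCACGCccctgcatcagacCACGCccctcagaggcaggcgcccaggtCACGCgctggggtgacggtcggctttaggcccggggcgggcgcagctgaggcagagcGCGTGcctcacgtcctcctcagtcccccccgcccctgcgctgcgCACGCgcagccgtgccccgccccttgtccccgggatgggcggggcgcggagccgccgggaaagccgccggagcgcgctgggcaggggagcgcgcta

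The Nampt window held 5 matches to the xenobiotic response core (GCGTG, or CACGC on the other strand), a motif present at least 1 time in 32.4% of 32851 windows of the same length. The share of windows with 5 matches was not counted. Of the 6 member windows searched 3 held this core, those of Tdo2, Nampt and Haao. The Haao window held 1 match each to the HNF1 pattern (ATTAAC, present in 7.1% of windows), the glucocorticoid receptor pattern (TGTTCT, 19%) and the xenobiotic response core. None of the 7 motifs was found in the Afmid window. The C/EBP pattern (40.7% of windows) was not found in these 3 windows. The E-box (7.15% of windows), the HNF4 pattern (0.475%) and the interferon element (3.44%) were not found in these windows or in those of Tdo2, Kmo and Qprt, the other members whose window was searched. These matches describe letters in the sequence and not binding.

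For the other 6 enzymes the diet comparison did not pass the test, and their groups overlapped. Tdo2 (ENSMUSG00000028011.17), the hepatic enzyme that commits tryptophan to the pathway, was at 478, 549, 645, 251 and 272 CPM in chow livers and at 418, 270, 918, 870, 377 and 609 CPM in wildtype CDAHFD livers. Its levels differed more than 2-fold between livers of each of these groups, and the fold change of 0.39 ± 0.34 had a 95% interval from -0.31 to 1.10 (adjusted p = 0.421). Heterozygous livers had the highest median, 810 CPM (311 to 1090), followed by homozygous livers at 571 (368 to 928), with neighbouring groups in this order not differing beyond their spread. Ido2 (ENSMUSG00000031549.17), which can catalyse the same step, was at 47.5, 45.9, 65.4, 51.3 and 57.9 CPM in chow and at 37.0, 28.5, 59.0, 51.6, 33.8 and 45.2 CPM in wildtype CDAHFD livers (-0.33 ± 0.24, adjusted p = 0.329). It ranged from 25.3 to 78.2 CPM in heterozygous and from 24.9 to 65.3 in homozygous livers, and these ranges enclosed 5 of 5 and 4 of 5 chow values.

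Kmo (ENSMUSG00000039783.16), the monooxygenase that makes 3-hydroxykynurenine, was at 249, 220, 250, 227 and 239 CPM in chow and at 188, 152, 203, 222, 186 and 237 CPM in wildtype CDAHFD livers. Of the wildtype CDAHFD livers 4 of 6 were below every chow liver, but the fold change of -0.26 ± 0.12 (adjusted p = 0.119) was not called. Fh1, fumarate hydratase, overlaps Kmo on the opposite strand and averaged 142 ± 8.18 CPM (SD, n = 5) in chow and 138 ± 18.5 CPM (SD, n = 6) in wildtype CDAHFD livers (adjusted p = 0.884). Kynu (ENSMUSG00000026866.18), kynureninase, ranged from 88.1 to 142 CPM in chow and from 69.2 to 115 in wildtype CDAHFD livers (-0.24 ± 0.16, adjusted p = 0.275). In heterozygous and homozygous livers Kmo ranged from 177 to 276 and from 170 to 269 CPM, and Kynu from 88.1 to 123 and from 72.7 to 147 CPM.

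Qprt (ENSMUSG00000030674.6), which joins quinolinate to phosphoribose on the way to NAD, was at 123, 138, 127, 123 and 112 CPM in chow livers and at 120, 109, 159, 170, 152 and 181 CPM in wildtype CDAHFD livers. Of the CDAHFD wildtype livers 4 were above every chow liver and the other 2 were not. The fold change was 0.25 ± 0.13 (adjusted p = 0.156), and it passed the test without wildtype CDAHFD replicate 2 (0.34, adjusted p = 0.0447) and when raw totals replaced TMM scaling (0.48, adjusted p = 0.00136). Raw totals also moved the median of all tested genes from -0.01 to 0.22 and the share of calls that were higher from 54.8% to 88.4%, so the change in Qprt relative to that shift was close to the value with TMM scaling.

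Nnmt (ENSMUSG00000032271.14), nicotinamide N-methyltransferase, was at 87.6, 114, 77.7, 103 and 116 CPM in chow livers and at 78.5, 41.8, 81.3, 98.0, 56.0 and 65.3 CPM in wildtype CDAHFD livers. The fold change was -0.51 ± 0.34 with a 95% interval from -1.22 to 0.20 (adjusted p = 0.296). Among heterozygous livers Nnmt ranged from 39.3 to 160 CPM, and the value followed the library number. The 3 heterozygous livers of the lower number series held 116 to 160 CPM (mean 134) and the 4 of the larger series 39.3 to 69.2 CPM (mean 49.4), with no overlap between them. Kynu likewise separated by series in heterozygous livers, at 111 to 123 CPM in the lower and 88.1 to 109 CPM in the larger series. For Nnmt in wildtype CDAHFD livers the series overlapped. Their means were 67.2 CPM (41.8 to 81.3) in the lower and 73.1 CPM (56.0 to 98.0) in the larger series. Homozygous livers ranged from 53.2 to 179 CPM for Nnmt with a median of 76.2. Those of the lower series, at 106 to 108 CPM, lay within the range of the larger series.

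**Figure D2:**
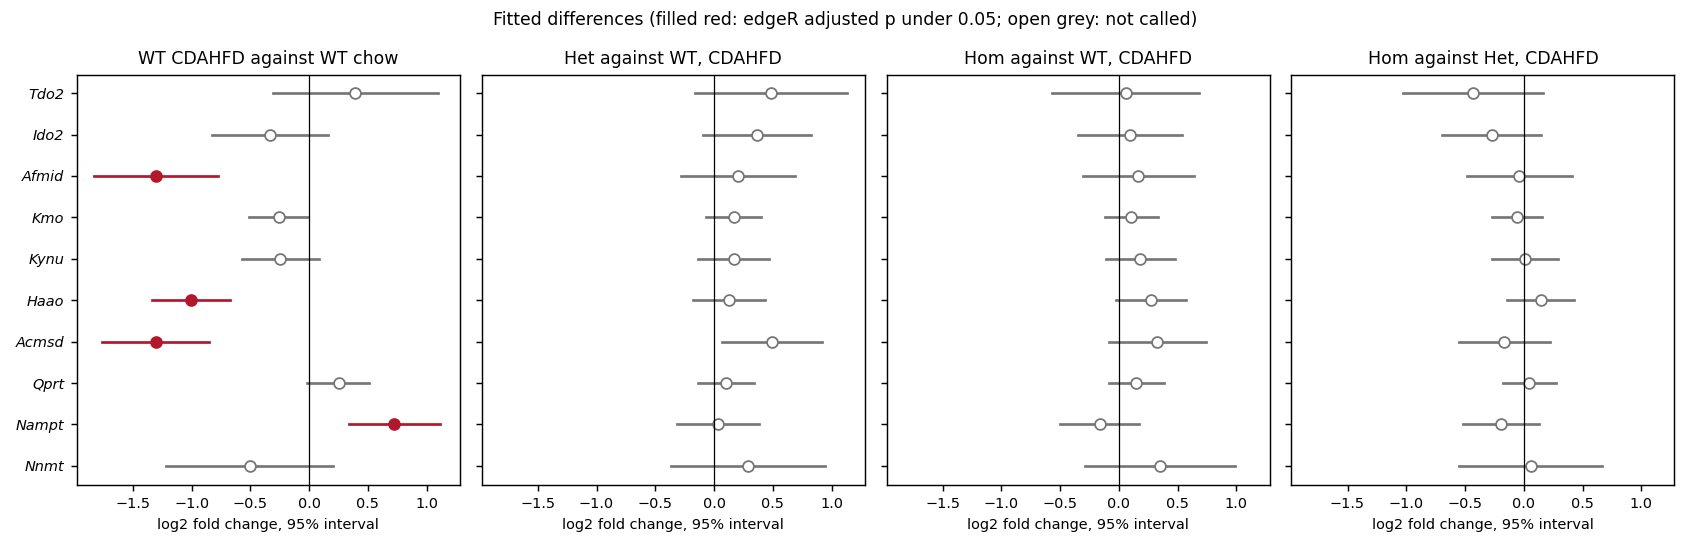
Fitted log2 fold change (points, horizontal axis) and 95% interval (lines) of the 10 genes in 4 comparisons, with filled red points for genes called by edgeR. Filled points occur in the diet comparison alone, for Afmid, Haao and Acmsd below 0 and Nampt above 0, and the 3 comparisons between genotypes on CDAHFD hold none.

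Because Acmsd and Qprt act on alternative fates of the same intermediate, their counts were also set against each other within each library. The values are ratios of counts that are not corrected for transcript length, so only their change between livers is informative. The log2 ratio of Qprt to Acmsd was between 1.90 and 3.05 in chow livers (median 2.49) and between 3.53 and 4.34 in wildtype CDAHFD livers (median 4.05). It was between 3.10 and 4.21 in heterozygous livers (median 3.62) and between 3.53 and 4.24 in homozygous livers (median 3.91). Every CDAHFD liver of any genotype had a higher ratio than every chow liver, with median linear ratios of 5.62 in chow, 16.6 in wildtype, 12.3 in heterozygous and 15 in homozygous livers. Acmsd, its denominator, was already called lower with the diet, so the separation is not evidence apart from that call.

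The ratio of Nnmt, which clears nicotinamide, to Nampt, which recycles it, moved the other way in wildtype mice. Its log2 value was between 0.64 and 1.64 in chow livers (median 1.21) and between -0.54 and 0.19 in wildtype CDAHFD livers (median -0.07), without overlap. Heterozygous livers spread from -1.10 to 1.07 (median -0.05) and homozygous livers from -0.22 to 1.55 (median 0.18), and both overlapped the chow range. This ratio likewise contains a gene already called with the diet, Nampt. Neither ratio was tested, and how often ratios of other gene pairs separate these groups was not examined.

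**Figure D3:**
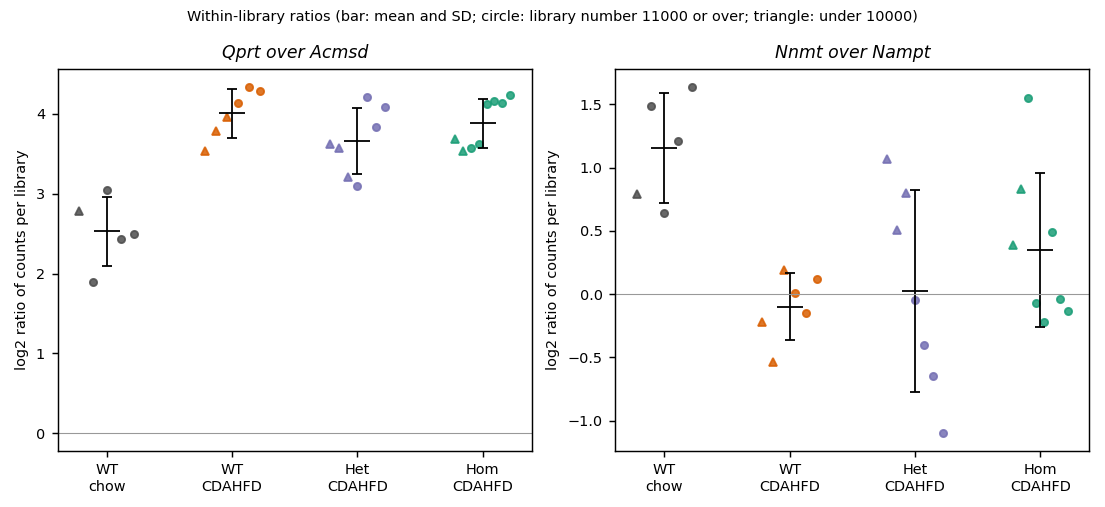
Log2 ratio of Qprt to Acmsd counts and of Nnmt to Nampt counts in each library (vertical axes), by group, with bars for the mean and SD. All chow points of the first ratio, at most 3.05, lie below all CDAHFD points, at least 3.10, whereas chow and CDAHFD points of the second overlap in the knockout groups.

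Loss of Mtarc1 was not accompanied by a called change in any of the 10 enzymes. With homozygous knockout against wildtype on CDAHFD, edgeR called 0 of 10, none with an unadjusted p under 0.05, and limma-voom and DESeq2 also called 0 of 10. Of all tested genes 0.00585% were called (1 gene, Mtarc1 itself), and 1705 had an unadjusted p under 0.05. The lowest p among the 10 was that of Haao, with a fold change of 0.27 ± 0.15, a 95% interval from -0.03 to 0.57 and an adjusted p of 0.562. The other fold changes ranged from -0.16 for Nampt to 0.35 for Nnmt. Intervals were narrow for Kmo (-0.12 to 0.33) and Qprt (-0.08 to 0.38) and wide for Tdo2 (-0.57 to 0.68) and Nnmt (-0.29 to 0.99), so that changes of the size that Afmid or Acmsd showed with diet lay outside the intervals of all 10 genes. In 9 of 10 genes the fitted value was above 0, but in the 17 libraries of the larger number series Tdo2, Ido2, Afmid, Kmo and Qprt had values below 0, from -0.17 for Afmid to -0.025 for Qprt. All 8 hepatocyte markers described below also had fitted values above 0 in all libraries, with a median of 0.132. The median of the 10 enzymes was 0.157.

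With heterozygous knockout against wildtype on CDAHFD, edgeR again called 0 of 10, with 1 gene at an unadjusted p under 0.05, and limma-voom and DESeq2 called 0 of 10. No gene was called among all those tested (0%), 1444 had an unadjusted p under 0.05, and DESeq2 called 3. Mtarc1, the targeted gene, was itself not called by edgeR here (-0.55 ± 0.15, adjusted p = 0.569), so a gene left uncalled can still differ. The lowest p was that of Acmsd, at 7.49 to 10.4 CPM in wildtype and 8.35 to 18 CPM in heterozygous CDAHFD livers, with a fold change of 0.49 ± 0.21, a 95% interval from 0.07 to 0.92 and an adjusted p of 0.569 in edgeR. Of the heterozygous livers 6 of 7 were above every wildtype CDAHFD liver. Tdo2 had a similar fitted value with a wider error, 0.49 ± 0.31 (adjusted p = 0.582). All 10 fitted values were above 0, with a median of 0.185, and both knockout comparisons share the same 6 wildtype livers. Of the 8 hepatocyte markers 6 had fitted values above 0 and 2 below, with a median of 0.236. In the larger number series alone Afmid, Kmo, Haao, Qprt and Nnmt had values below 0, the lowest being Nnmt at -0.56, and with raw totals Nampt was at -0.01.

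Homozygous against heterozygous livers gave 0 of 10 calls in edgeR, none with an unadjusted p under 0.05, and 0 of 10 in limma-voom and DESeq2, against 0.00585% of all tested genes (1 gene) and 1219 genes with an unadjusted p under 0.05. The lowest p was that of Tdo2 (-0.43 ± 0.29, 95% interval -1.03 to 0.16, adjusted p = 0.735). The fitted values of the other 9 genes lay between -0.27 for Ido2 and 0.14 for Haao.

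Each knockout group was also set against the chow livers, which mixes the diet with the genotype and shares the chow libraries with the diet comparison. In homozygous livers 5 of 10 genes were called, 2 higher and 3 lower, against a background of 23.1% (12.3% higher and 10.8% lower). Haao (-0.73 ± 0.15, adjusted p = 0.000933), Afmid (-1.14 ± 0.24, adjusted p = 0.00117) and Acmsd (-0.98 ± 0.21, adjusted p = 0.00121) were lower. Nampt (0.57 ± 0.18, adjusted p = 0.0216) and Qprt (0.40 ± 0.12, adjusted p = 0.0186) were higher. Without chow replicate 5 the count was 3, since neither Qprt nor Nampt passed the test, and without chow replicate 2 Nampt did not. In the larger number series the value of Nampt was 0.59 with an adjusted p of 0.0845.

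In heterozygous livers 6 of 10 genes were called against chow, 3 in each direction, where 37.2% of all tested genes were called (19.3% higher and 17.9% lower). Haao (-0.88 ± 0.15, adjusted p = 0.000124), Afmid (-1.10 ± 0.24, adjusted p = 0.00123) and Acmsd (-0.81 ± 0.21, adjusted p = 0.00412) were lower. Nampt (0.76 ± 0.18, adjusted p = 0.00215), Qprt (0.35 ± 0.12, adjusted p = 0.0286) and Tdo2 (0.88 ± 0.34, adjusted p = 0.0413) were higher. The call of Tdo2 was lost in 7 of 12 fits that left out 1 library and in the larger number series (0.71, adjusted p = 0.195), and Qprt also missed the threshold in that series (0.32, adjusted p = 0.0985). Nnmt, at -0.22 ± 0.33 in all libraries, was called lower in that series alone (-1.05, adjusted p = 0.0277).

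Within groups, livers with more of one kynurenine enzyme tended to have more of the others. After subtracting each group's mean log2 CPM, 44 of the 45 pairs among the 10 genes had a positive Pearson r over 26 libraries, and 31 had an adjusted p under 0.05 (permutation test within groups, two-sided, 100000 permutations, Benjamini-Hochberg over the 45 pairs), or 29 with Spearman's rho. The median r was 0.61, against -0.003 over all pairs of 13939 genes with at least 1 CPM on average. The highest value was between Afmid and Haao (r = 0.88, rho = 0.87, permutation p = 1e-05, the smallest that 100000 permutations can give, adjusted p = 9e-05). It was 0.85 without the 2 libraries farthest from the median in Afmid, 0.87 in the 17 libraries of the larger number series and 0.86 in 8 CDAHFD libraries of the lower series. In each pair such libraries were chosen by 1 of its genes, so libraries far out in the other gene could remain. Ido2 and Kynu (r = 0.83, rho = 0.83, adjusted permutation p = 9e-05) and Tdo2 and Ido2 (r = 0.81, rho = 0.76, adjusted permutation p = 9e-05) followed. Their r was 0.85 without the 2 libraries farthest in Ido2 and 0.72 without the 2 farthest in Tdo2, respectively. In the larger series these pairs had r of 0.75 and 0.78.

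The correlations of Acmsd with the other 9 genes ranged from -0.19 to 0.58, and those of Nampt from -0.19 to 0.47. Acmsd and Nampt formed the only negative pair (r = -0.19, adjusted permutation p = 0.405). Of the pairs with Acmsd, those with Nnmt and Kynu passed the test. With Nnmt, r was 0.58 (rho = 0.61, adjusted permutation p = 0.00442), 0.53 without the 2 libraries farthest in Acmsd and 0.5 in the larger number series. With Kynu, r was 0.49 (rho = 0.47, adjusted permutation p = 0.0363), 0.39 without the 2 libraries farthest in Kynu and 0.36 in the larger number series. Of the pairs with Nampt, that with Tdo2 passed (r = 0.47, rho = 0.38, adjusted permutation p = 0.0398). Its r was 0.25 without the 2 libraries farthest in Tdo2 and 0.56 in the larger number series. The pair of Tdo2 and Nampt was thus weaker without those 2 libraries, did not pass by rho (adjusted permutation p = 0.109) and had r of 0.01 in the 8 libraries of the lower series. Nampt had r of 0.09 with Kynu and 0.10 with Qprt. Whether these genes differ from the others in covariation was not tested. Hepatocyte marker levels also varied between livers of a group, and their part in these correlations was not tested.

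**Figure D4:**
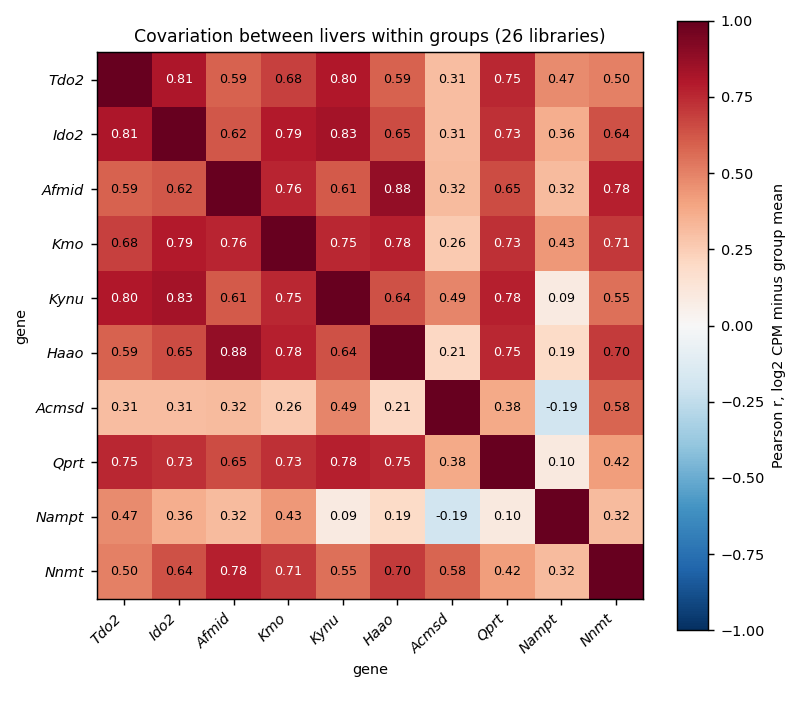
Pearson r between each pair of the 10 genes (rows and columns) over 26 libraries, from log2 CPM minus the group mean, with red for positive and blue for negative values. Tdo2, Ido2, Afmid, Kmo, Kynu, Haao and Qprt form a red area that reaches 0.88 for Afmid and Haao, and the row of Nampt holds values from -0.19 to 0.47.

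By the same measure, over 26 libraries and as a description, the genes most like each member were the following. Tdo2 was nearest to Fech, Isoc1 and Rxra (r = 0.92 each) and Ido2 to Etfrf1 (0.90), Atg9a (0.90) and Aldh8a1 (0.89), the last of which encodes an aldehyde dehydrogenase of the kynurenine pathway's oxidation branch. Afmid was nearest to Selenbp1 (0.92), Gchfr (0.90) and Pipox (0.90), and Kmo to Ak3 (0.93), Aass (0.92), which degrades lysine, and Adk (0.91). Kynu was nearest to Lap3 (0.92), Ube2l3 (0.91) and Cfhr2 (0.91), and Haao to Gstz1 (0.93), an enzyme of tyrosine breakdown, Fkbp8 (0.93) and Ebpl (0.93). Qprt was nearest to Tstd3 (0.93), Nipsnap1 (0.92) and Slc25a11 (0.92). The nearest genes of the remaining 3 were less alike, with Acmsd nearest to Hist2h2be (0.70), Suv39h2 (0.69) and Sumf2 (0.68), Nampt to Coq10b (0.83), Klf13 (0.83) and Ciart (0.82), and Nnmt to Asic5 (0.85), Stard10 (0.81) and Slc43a1 (0.81). All pairs share the libraries and their scaling.

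Enzymes beside the 10 in the same routes were taken from fixed lists. Over all tested genes 27.1% were called with diet, as given above. Of 12 tested enzymes of kynurenine side branches, oxidation and NAD synthesis, 3 were lower under CDAHFD in wildtype liver and 0 were higher. The largest of these was Kyat1, which transaminates kynurenine to kynurenic acid, at 169 to 317 CPM in chow and 76.0 to 154 CPM in wildtype CDAHFD livers, without overlap (-1.27 ± 0.18, adjusted p = 1.01e-05). Kyat3, another kynurenine aminotransferase (-0.49 ± 0.16, adjusted p = 0.0211), and Dhtkd1, which acts on 2-oxoadipate at the end of the oxidation branch (-0.41 ± 0.15, adjusted p = 0.0487), were also lower. The median of the list was -0.28. Ido1, the interferon-inducible dioxygenase, did not pass the low-count filter, and its highest level in any library was 0.106 CPM.

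Of 5 tested tryptophan transporters 2 rose with the diet, where 27.1% of all tested genes were called. Slc7a8, a neutral amino acid exchanger, went from 4.38 to 6.73 CPM in chow to 9.08 to 19.2 CPM in wildtype CDAHFD livers (1.17 ± 0.16, adjusted p = 8.46e-06), and Slc7a6 was also higher (0.80 ± 0.27, adjusted p = 0.0311). Among 5 tested genes for other uses of tryptophan, the immune-cell oxidase gene Il4i1 was higher (0.98 ± 0.36, adjusted p = 0.0415) at no more than 2.21 CPM. Ddc, aromatic amino acid decarboxylase (-0.69 ± 0.26, adjusted p = 0.0477), and Maoa, a monoamine oxidase (-0.34 ± 0.12, adjusted p = 0.0322), were lower.

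None of the other salvage genes was called higher with the diet. Of 8 tested, 2 were lower, Pnp, a nucleoside phosphorylase (-0.46 ± 0.13, adjusted p = 0.0110), and Nt5e, the ectonucleotidase that releases nucleosides (-0.70 ± 0.24, adjusted p = 0.0323). Among 19 enzymes that consume NAD, 4 were higher, all of them ADP-ribosyltransferases: Parp14 (0.53 ± 0.09, adjusted p = 9.64e-05), Parp12 (0.50 ± 0.14, adjusted p = 0.00686), Parp9 (0.38 ± 0.11, adjusted p = 0.00806) and Parp3 (0.34 ± 0.10, adjusted p = 0.0171). The sirtuins Sirt7 (-0.56 ± 0.10, adjusted p = 0.00011) and Sirt4 (-0.39 ± 0.09, adjusted p = 0.00225) were lower, and the list's median was 0.00. The shares called in the salvage and NAD consumer lists were near the 27.1% called over all tested genes.

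Kynurenine is a ligand of the aryl hydrocarbon receptor, and Tdo2 is a known target of the glucocorticoid receptor. Of 8 genes of the first receptor and its targets, Nqo1 (0.85 ± 0.22, adjusted p = 0.00486) and Cyp1b1 (1.05 ± 0.34, adjusted p = 0.0198) were higher, and the other 6 were not called. Cyp1b1 was counted at no more than 3.15 CPM in wildtype CDAHFD livers, and 2 of the 8 fitted values were below 0. Of 8 genes of the second, Nr3c1, the receptor itself, was lower (-0.24 ± 0.07, adjusted p = 0.0171) and 0 were called higher. The fitted values of this list were nevertheless above 0 for 6 genes and below 0 for 2, with a median of 0.42. In heterozygous livers against chow, Per1 was called higher and Nr3c1 lower. Over all tested genes 27.1% were called in the wildtype diet comparison. The activity of either receptor was not tested.

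**Figure D5:**
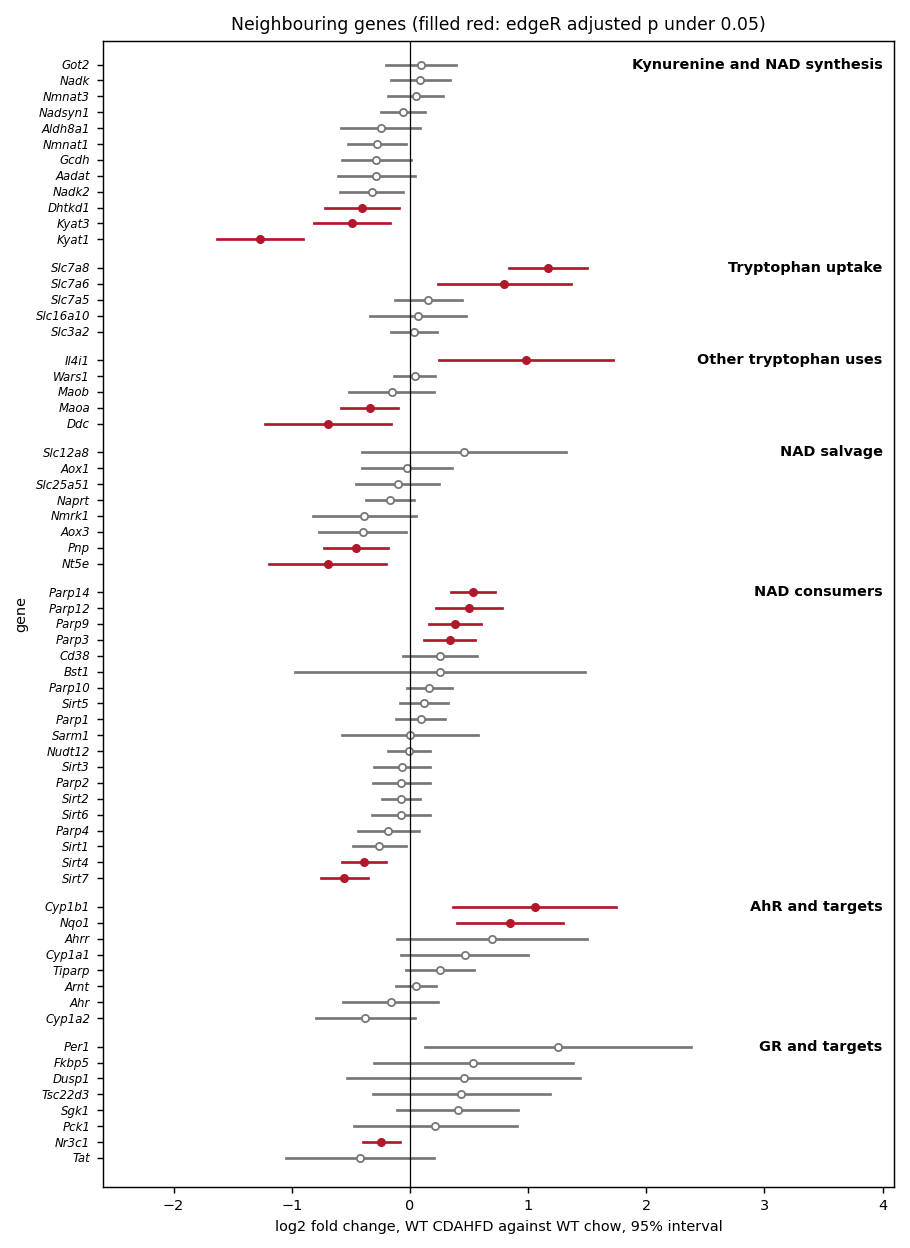
Log2 fold change of the listed neighbouring genes in wildtype CDAHFD against wildtype chow livers (horizontal axis, points with 95% intervals), grouped by list, with filled red points for genes called by edgeR. Kyat1 at -1.27 has the lowest value and Slc7a8 at 1.17 the highest among called genes.

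No gene of these 7 lists was called by edgeR in the 3 comparisons between genotypes on CDAHFD. With homozygous knockout against wildtype the lowest p in each list belonged to Kyat1 (0.34, adjusted p = 0.483), Slc7a8 (-0.34, adjusted p = 0.391), Il4i1 (-0.67, adjusted p = 0.44), Pnp (0.14, adjusted p = 0.771), Cd38 (-0.23, adjusted p = 0.60), Cyp1b1 (-0.97, adjusted p = 0.217) and Nr3c1 (0.11, adjusted p = 0.612). Kyat1, Slc7a8, Il4i1 and Cyp1b1 were the 4 with an unadjusted p under 0.05 there. Heterozygous against wildtype livers gave 5 such genes, Nadk, Nadk2, Kyat3, Slc16a10 and Parp1, all with an adjusted p of 0.569, and homozygous against heterozygous livers gave 5, Kyat1, Slc7a8, Il4i1, Sirt7 and Cyp1b1, with adjusted p from 0.483 to 0.694. Naming all of these was decided after their values were seen. In the lists without such a gene, the lowest p in heterozygous against wildtype livers was that of Maob (0.27, adjusted p = 0.572), Pnp (0.24, adjusted p = 0.569), Ahr (0.28, adjusted p = 0.578) and Tat (0.25, adjusted p = 0.733). In homozygous against heterozygous livers it was that of Pnp (-0.11, adjusted p = 0.816) and Nr3c1 (0.12, adjusted p = 0.716). Against chow, Kyat1 was lower in homozygous (-0.93, adjusted p = 0.000223) and heterozygous livers (-1.31, adjusted p = 4.05e-06), and Slc7a8 was higher in both (0.83, adjusted p = 0.000373, and 1.12, adjusted p = 1.11e-05). Of the 19 NAD consumers 4 were higher and 2 lower in homozygous livers, and 4 were higher and 3 lower in heterozygous livers, where 23.1% and 37.2% of all tested genes were called. Parp14 (0.59, adjusted p = 2.8e-05, and 0.57, adjusted p = 3.46e-05) was higher and Sirt7 (-0.42, adjusted p = 0.00133, and -0.62, adjusted p = 2.1e-05) lower in both.

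The livers also differed in markers of the cells they contain, and in whole tissue fewer cells of a type and less RNA per cell cannot be told apart. Summed CPM of 8 hepatocyte markers was 103000 to 138000 in chow, 71500 to 111000 in wildtype CDAHFD, 74000 to 113000 in heterozygous and 79800 to 118000 in homozygous livers, with none of the markers at 0 and 3 of 8 called lower in the diet comparison. Alb made up most of that sum, with a mean of 79800 CPM in chow and 55400 in wildtype CDAHFD livers. The fitted diet values of the 8 were below 0 for 5 and above 0 for 3. Summed CPM of 10 macrophage markers was 232 to 429, 504 to 886, 468 to 683 and 364 to 669 in the same order of the 4 groups, and 9 of 10 rose with the diet. Of the other lists, 3 of 4 tested neutrophil, 1 of 6 lymphocyte, 1 of 6 stellate cell, 1 of 5 bile duct and 0 of 5 sinusoidal endothelial markers rose with the diet. Over all tested genes 14.8% were called higher and 12.2% lower in that comparison, and the lymphocyte, stellate cell and bile duct counts were near the share called higher. Of these 44 tested markers none was called between genotypes on CDAHFD, although 5 macrophage and 3 stellate cell markers (6 of 6 tested stellate cell markers had values below 0) had an unadjusted p under 0.05 and lower values in homozygous than in wildtype livers. Between homozygous and heterozygous livers 4 macrophage and 2 stellate cell markers had an unadjusted p under 0.05, and between heterozygous and wildtype livers 1 hepatocyte, 1 sinusoidal endothelial and 1 stellate cell marker did. The part of these cell types in the differences of the 10 enzymes was not tested.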

How the data were processed

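Liver RNA of 26 samples was sequenced by the submitters, with libraries from the NEBNext Ultra II kit, per the labels' protocols. The authors deposited estimated counts, which need not be whole (54.4% of values above 0 were), and the tools included cutadapt 3.5 and Salmon 1.4.0 with the mouse builds GRCm39 and mm39, per the submitters' processing notes. How transcripts were summed to genes, and whether strand was used, is not stated in the sources used here. Groups came from the sample titles, with 0 columns unused. Symbols were looked up by gene ID in GENCODE M21 of GRCm38 (51475 of 55642 IDs, 92.5%), and Mtarc1, Wars1 and Tf through their older symbols. Promoter windows are from RefSeq (GRCm38.p6), with windows of 6 of the 10 members used, and 1 result on a promoter is not reported here.

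Counts were rounded and fitted in 1 model over 4 groups with edgeR 4.0.16 in R 4.3.3 (TMM, filterByExpr, robust quasi-likelihood tests, Benjamini-Hochberg adjustment over 17104 genes). The biological coefficient of variation was 21.5%. No library appeared to be a copy of another, since chi-square divided by its degrees of freedom was at least 16.9 in each of 74 within-group pairs. The fit was tested on simulated data. Alternatives included limma 3.58.1 (voom), DESeq2 1.42.0, other scaling, no filter, the library number series and leaving out each library. Named genes were Mtarc1, the 10 members, up to 4 called genes of each list with the lowest p (or the lowest p where none was called) and the 3 genes most like each member. Parp3, Parp9, Ido1, Alb and the genes that overlap members were named after their values were seen. Members, lists and tests were chosen with earlier results of these data known.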

Additional observations from a re-analysis of the deposited data

Results flagged for a closer look

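Nnmt in homozygous CDAHFD replicate 3 was 179 CPM, with the next highest library of that group at 108 CPM. The gap was 0.563 of the group's range, above Dixon's 95% critical value for 8 libraries. Among the 40 groups examined (10 genes in 4 groups) chance alone flags about 1 in 20. Leaving that library out kept Nnmt uncalled in each comparison.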

How the results depend on the processing

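The calls of Haao, Afmid and Acmsd against chow kept their direction and passed the threshold under every alternative run, in all 3 CDAHFD groups. The count of called members stayed at 0 in the 3 comparisons between genotypes. It ranged from 4 to 5 for wildtype CDAHFD against chow, from 3 to 5 for homozygous against chow (3 without chow replicate 5) and from 4 to 6 for heterozygous against chow when 1 library was left out, and was 3 for the diet comparison in the larger number series alone, where Nampt missed the threshold.

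Over all genes, the diet comparison called 4630 genes, 2264 of 17132 in the larger number series alone, 3793 without an expression filter and 3153 without wildtype CDAHFD replicates 2 and 3, a choice made after seeing the data. DESeq2 called 47 genes for homozygous against wildtype, 15 for homozygous against heterozygous and 3 for heterozygous against wildtype, where edgeR called 1, 1 and 0. Leaving out wildtype CDAHFD replicates 1, 4 or 5 gave 2, 4 and 2 genes for homozygous against wildtype. Raw totals moved the share of higher calls from 53.3% to 88.9% for homozygous and from 51.8% to 82.9% for heterozygous against chow, with median shifts of 0.20 and 0.19.

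Fits with the sample number as a replicate block called 4, 4 and 5 members against chow in wildtype, homozygous and heterozygous livers, 0 between genotypes, and 4464 genes with diet. Homozygous against wildtype gave 2 genes instead of 1. Qprt missed the threshold with the block in homozygous (0.38, adjusted p = 0.0519) and heterozygous livers (0.34, adjusted p = 0.0596), and Tdo2 in homozygous against wildtype was -0.029. The labels do not say that a number is shared, and not every same-numbered pair deviated together (r over 0.1) in any pair of groups. The counts were 2, 3 and 1 of 5 pairs for chow with wildtype, heterozygous and homozygous CDAHFD livers, 4 of 6 for wildtype with heterozygous, 2 of 6 for wildtype with homozygous and 4 of 7 for heterozygous with homozygous livers.

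Several fitted values that were not called changed sign. In the larger number series these were, for homozygous against wildtype, Tdo2 (-0.15), Ido2 (-0.054), Afmid (-0.17), Kmo (-0.031) and Qprt (-0.025), for heterozygous against wildtype Afmid (-0.31), Kmo (-0.069), Haao (-0.28), Qprt (-0.10) and Nnmt (-0.56), for homozygous against heterozygous Afmid (0.14) and Kmo (0.038), and for heterozygous against chow Ido2 (-0.26). Ido2 in that comparison was also -0.049 with the number series as a covariate and -0.023 in voom, and Kynu in homozygous against heterozygous was -0.015 in voom. With raw totals Nampt was -0.013 in heterozygous against wildtype, Kmo 0.04, Kynu 0.13 and Nnmt 0.013 in homozygous against chow, and Kmo 0.093 and Kynu 0.12 in heterozygous against chow. Nampt was -0.045 in heterozygous against wildtype without wildtype replicates 2 and 3, and the summed Afmid and Gm20708 counts gave 0.025 in homozygous against heterozygous.

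Leaving out 1 library gave ranges that crossed 0 for Tdo2 (-0.10 to 0.24) and Ido2 (-0.007 to 0.21) in homozygous against wildtype and for Nampt (-0.059 to 0.131) in heterozygous against wildtype. In homozygous against heterozygous the same held for Afmid (-0.14 to 0.10), Kynu (-0.069 to 0.077), Qprt (-0.008 to 0.09) and Nnmt (-0.16 to 0.29). Against chow it held for Kynu in homozygous (-0.145 to 0.045) and heterozygous (-0.145 to 0.032) and for Ido2 in heterozygous livers (-0.073 to 0.158). Tdo2 in heterozygous against chow missed the threshold without a filter (0.91, adjusted p = 0.086) and with the number series as a covariate (0.82, adjusted p = 0.0626). Qprt there missed it without chow replicates 1, 4 or 5 or heterozygous replicate 7. Where no value shows a cause, the cause was not tested. Acmsd, with 7.37 to 37 CPM, rests on the fewest reads.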
